A study of Mus musculus with 2 samples.

Results

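The Prg4 Clu Meox1 FAPs of quadriceps were a group of fibro-adipogenic progenitors (FAPs, the PDGFRα-positive mesenchymal stromal cells of muscle) picked out by their transcripts in a mouse single-cell RNA library. The data were 2 droplet libraries of mononuclear cells, 1 from quadriceps (a limb muscle) and 1 from diaphragm (the respiratory muscle) of C57BL/6J mice. The labels name no treatment or mutant allele and give no age, and they count 10 mice in all. Muscle was digested with collagenase and dispase, viable cells were sorted on light scatter alone, and the cells of several animals were combined per tissue before capture. There was 1 library per tissue and no replicate, so tissue, animal pool and library cannot be told apart. No p-value is given, cells are not replicates, and every interval below is a 95% interval for counting error only.

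Members were chosen from the measured counts of unique molecular identifiers (UMIs, each standing for 1 captured transcript). A FAP gate took cells with at least 1000 UMIs, at most 5% of UMIs from the 13 mitochondrial genes, at least 1 UMI of Pdgfra, at least 50 of Dcn (decorin, a proteoglycan of fibroblasts) and under 2 of the tendon cell gene Tnmd. Within it, members had at least 2 UMIs of Prg4, at least 2 of Clu, at least 1 of Meox1, Meox2 or Clec1a, and a sum under 5 for Dmkn, Sbsn and Krtdap. The rule held 233 of the 1681 quadriceps gate cells (13.9%, exact binomial interval 12.2 to 15.6%). That was 10.7% of the 2171 quadriceps cells past the UMI and mitochondrial limits, and 233 of 7658 barcodes in the series. Since the same cells and counts chose the members, every contrast inside quadriceps describes the choice and tests nothing.

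FAPs lie between muscle fibres, build much of the extracellular matrix, and support muscle stem cells after injury, and they can turn into fat-storing or matrix-depositing cells. Prg4 encodes lubricin, the mucin-like glycoprotein that coats joint surfaces and sliding connective tissue. Clu encodes clusterin, a secreted chaperone, Mgp a vitamin K-dependent inhibitor of calcification, Meox1 and Meox2 homeobox factors first known from the somites, and Clec1a a C-type lectin-like receptor. Ptn encodes pleiotrophin, a heparin-binding growth factor, and Hmcn1 hemicentin-1, a very large matrix protein of basement membranes. Other limb FAPs are often described by Pi16 and Dpp4, genes of stem-like fibroblasts of connective tissue sheaths.

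Promoter sequence is shown for Hmcn1 and Meox2, whose levels went most closely with that of Prg4 over the quadriceps gate together with Myoc. Of the 7 markers and Meox2, the RefSeq promoter table held Hmcn1, Meox2 and Ptn. No entry was held for Prg4, Clu, Mgp, Meox1 or Clec1a. Each line gives the 250 bases before the start site on GRCm38.p6, read 5′ to 3′ on the gene's own strand. The Hmcn1 stretch is chr1:150993436-150993685 (minus strand) and the Meox2 stretch is chr12:37108290-37108539 (plus strand). Capitals mark a motif match, which here was a single TATA box, searched as TATAAA.
Hmcn1: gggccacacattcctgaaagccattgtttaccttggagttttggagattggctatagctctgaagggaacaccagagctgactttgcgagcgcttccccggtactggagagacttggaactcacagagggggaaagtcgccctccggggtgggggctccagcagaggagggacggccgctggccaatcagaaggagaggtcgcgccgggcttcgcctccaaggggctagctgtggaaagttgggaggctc
Meox2: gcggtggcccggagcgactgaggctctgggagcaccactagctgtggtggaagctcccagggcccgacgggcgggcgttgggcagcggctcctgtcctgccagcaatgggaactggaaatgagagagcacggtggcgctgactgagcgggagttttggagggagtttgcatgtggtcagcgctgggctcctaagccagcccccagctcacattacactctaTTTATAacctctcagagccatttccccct
The search covered both strands for 4 motifs, none of which contains another. The homeobox core was searched as TAATTA, the E-box as CACGTG, and the AP-1 site as TGANTCA, beside the TATA box. Meox2 held 1 TATAAA match, on the opposite strand, and Hmcn1 held none of the 4. Over all 32851 promoter windows the shares with a match were 4.84% for TAATTA, 6.02% for CACGTG, 12.4% for TATAAA and 6.75% for TGANTCA. The 56 windows found for 44 of the genes that were higher in the members held them at 1.79, 5.36, 12.5 and 3.57%, that is in 1, 3, 7 and 2 windows. A match describes letters in a window and not a bound site.

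The rule narrowed the gate mainly through Clu. Of the 1681 gate cells, 636 (37.8%) had 2 or more UMIs of Prg4 and 291 (17.3%) had 2 or more of Clu, and 234 had both. All of those 234 also had a UMI of Meox1, Meox2 or Clec1a, as did 75.5% of the gate as a whole, so this condition removed no further cell. The Dmkn, Sbsn and Krtdap limit removed 1 cell. Members had 2 to 85 UMIs of Prg4 (median 13) and 2 to 34 of Clu (median 5). At the limits themselves, 12 members had just 2 UMIs of Prg4 and 40 had just 2 of Clu.

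The homeobox genes and Clec1a were mostly found together. All of Meox1, Meox2 and Clec1a were detected in 144 members (61.8%), Meox1 with Meox2 in 53, Meox2 with Clec1a in 19, Meox2 alone in 12, Meox1 with Clec1a in 4 and Meox1 alone in 1. Meox1 had a UMI in 86.7% of members and 29.1% of the other 1448 gate cells, Meox2 in 97.9% and 62.2%, and Clec1a in 71.7% and 25.5%. Depth was close in both groups, with a median of 10813 UMIs in members (3478 to 25095) and 11231 in the other gate cells, and mitochondrial medians of 3.90% and 3.61%. Members made up 15, 16.4, 13.3 and 10.7% of the gate from its shallowest to its deepest quartile, so the share was not higher among deeper cells.

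Most canonical FAP genes were at similar levels in members and in the other gate cells. Both groups had passed the same Pdgfra and Dcn limits, so this likeness is no check of the FAP label. Cd34, the surface protein by which FAPs are often sorted, stood at 1116 CPM in members and 1361 CPM in the other gate cells (CPM, UMIs summed over the cells of a group and scaled to a common total). Ly6a, the Sca-1 antigen, stood at 2164 and 2678 CPM, and the collagen gene Col1a1 at 2120 and 2664 CPM. Of 14 canonical FAP genes compared, none was 2-fold higher and 1, Tek (the angiopoietin receptor Tie2), was 2-fold lower, with a median log2 fold of -0.28.

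Summed levels of other cell types' markers were below or close to those of the other gate cells, though single genes differed. The 12 endothelial markers summed to 9.89 CPM in members and 51.0 CPM in the others, with 5 of the 12 at 0 in members and at most 4 UMIs in any member. Most of the sum in the others was Ecscr (1.52 against 42.0 CPM). The rest were low in both groups and went both ways, as with Flt1 (2.66 against 0.765 CPM) and Cldn5 (0 against 1.47 CPM). The 12 immune markers summed to 36.5 against 83.5 CPM, with 6 at 0, and 1 member alone had 65 of these UMIs. Tendon markers summed to 1616 and 1647 CPM, of which Tppp3 gave 713 and 615 CPM. Of 8 tendon genes compared, Cpxm2 and Comp were 2-fold higher and Thbs2, Ptgis and Thbs4 lower, with the tendon factor Scx at 0 in members. Tnmd, which the rule held under 2 UMIs, was found in 8.58% of members and 2.69% of the others. Schwann markers summed to 636 and 661 CPM, mostly Pmp22 (605 and 562 CPM). Perineurial markers summed to 1148 and 1144 CPM, mostly Abca8a (1023 and 946 CPM), with Etv1 higher (66.5 against 19.95 CPM) and Angptl7 lower (17.9 against 82.4 CPM). The part of these cell types in the members' levels was not tested. Scrublet called 1 member a doublet.

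Against the rest of their gate, the members had their largest higher folds, among genes of at least 100 CPM, for Ptn, Hmcn1, Boc and Mgp. Over the 3369 genes that reached 50 CPM on the higher side, with the 11 genes of the rule left out, 63 were at least 2-fold higher in members (1.87% of those compared) and 121 at least 2-fold lower (3.59%). The median log2 fold over all 3369 was -0.01. Folds are log2 of CPM plus 1.

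Mgp was the most abundant of the higher genes. It reached 7680 CPM in members (exact Poisson interval 7574 to 7786) against 2060 in the other gate cells, a log2 fold of 1.90, and had a UMI in 230 of the 233 members, with a median of 54 UMIs and at most 726 in 1 cell. Ptn was at 118 CPM (105 to 132) against 14.2 (12.5 to 16.1), a log2 fold of 2.97. Its UMIs were in 91 members, and the 5 highest held 26.1% of them. Without those 5 the fold was 2.57, and here and below such folds leave out high cells on the rule's side alone. Pleiotrophin transcripts were thus found in a minority of members, while matrix Gla protein was found in nearly all.

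Hmcn1 was at 168 CPM (153 to 185) against 28.7 CPM, a log2 fold of 2.51, and was found in 165 members with 1 UMI at the median. Boc, a co-receptor for hedgehog ligands, was at 253 CPM (234 to 273) against 62.3 CPM, a log2 fold of 2.01, and was found in 194 members. Both were spread over the members, the 5 highest cells holding 9.26 and 8.71% of the UMIs. Next in order of fold came Cpxm2, a carboxypeptidase-like secreted protein (189 against 53.3 CPM), Spock2, a testican proteoglycan (108 against 30.7 CPM), and Kctd12, a subunit of GABA-B receptor complexes (298 against 88.9 CPM).

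The list went on with Cpe (carboxypeptidase E, log2 fold 1.57), Comp (1.54), the growth factor Clec11a (1.53), the ion transport regulator Fxyd6 (1.52), the BMP family member Gdf10 (1.49), Ndufa4l2 (1.47), Tmem176b (1.44) and Tmem176a (1.44). Immune cells of the same library also carried some of these, with 249 CPM of Kctd12 and 260 CPM of Tmem176b. With cells of 5 or more immune UMIs taken out, an alternative added after the data were seen, the Kctd12 log2 fold was 1.75 and the Tmem176b log2 fold was 1.46. Tmem176a and Tmem176b overlap at their ends on opposite strands, so UMIs from the shared stretch may be split between them. Comp, a cartilage matrix protein, was found in 41 members, and the 5 highest held 46.7% of its UMIs. Its log2 fold was 0.68 without those 5 cells and 0.57 where Prg4 and Clu were both required at 5 UMIs or more.

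**Figure D1:**
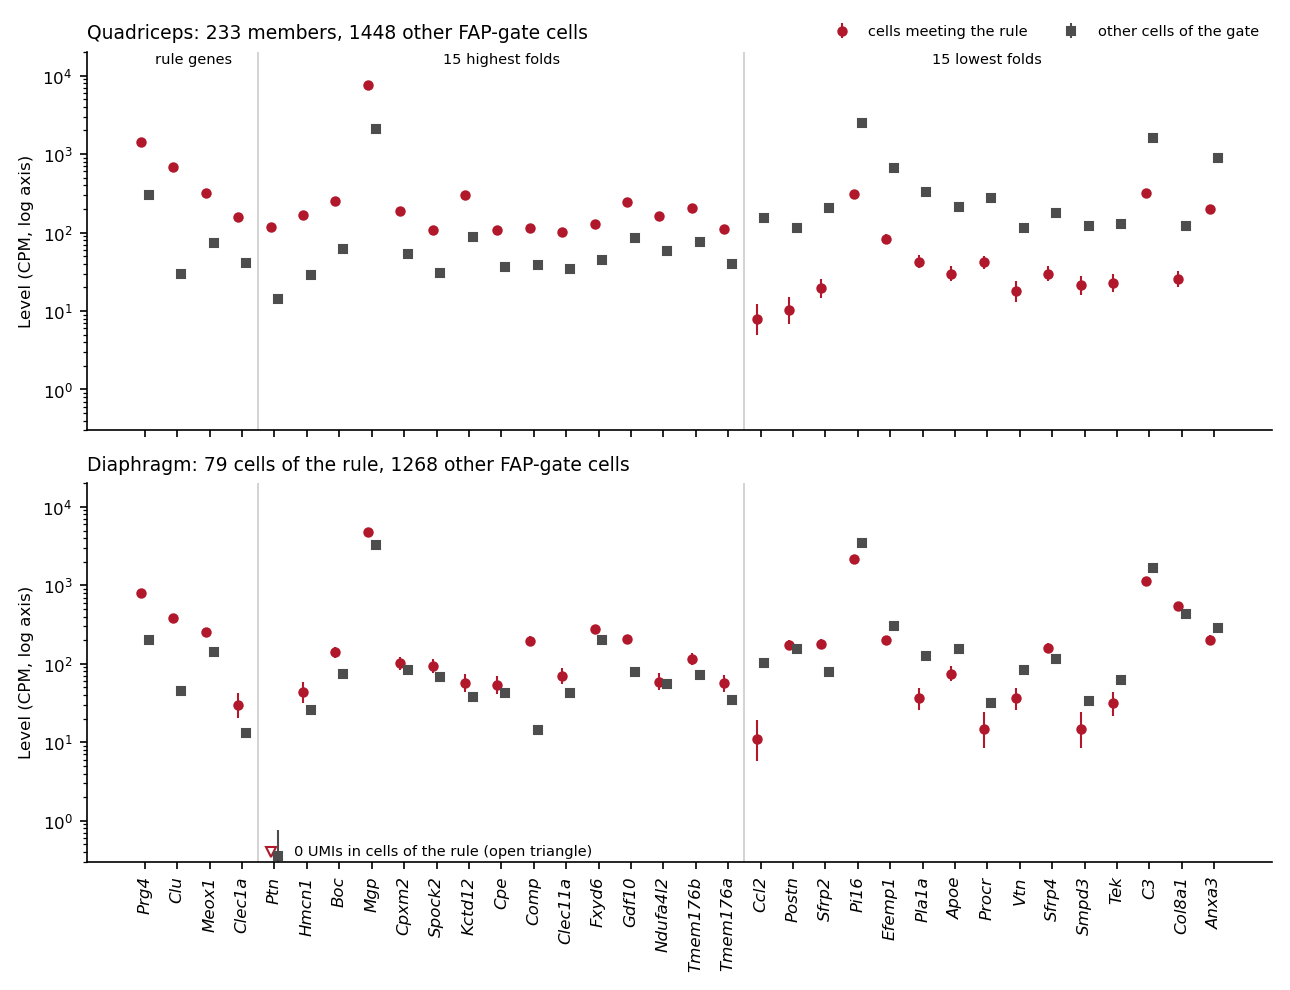
Summed level (CPM, log axis, points with exact 95% Poisson intervals) of 4 rule genes and of the 15 genes with the highest and the 15 with the lowest folds at 100 CPM or more, for cells meeting the rule and the other cells of the gate, in quadriceps (top) and diaphragm (bottom). The gap between red and grey points is wide in the upper panel, as for Pi16 at 309 against 2498 CPM, and narrower for most genes in the lower one, where Ptn had 0 UMIs in the cells of the rule.

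The lower genes included Pi16, Efemp1, C3 and Fn1, all abundant in the other gate cells. Pi16, a secreted peptidase inhibitor, stood at 309 CPM (288 to 331) in members against 2498 CPM, a log2 fold of -3.01. Just 5 members held 53.8% of those UMIs. Without them the fold was -4.07, a value that leaves out high cells on the members' side alone. Efemp1 (fibulin-3) stood at 83.7 against 664 CPM, complement C3 at 321 against 1620 CPM, and fibronectin (Fn1) at 526 against 2249 CPM.

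The chemokine Ccl2 was at 7.98 CPM against 153 CPM (log2 fold -4.10), with its UMIs in 7 members and 71 other cells, so few cells carried it in either group. The 5 highest cells held 90.5% of these UMIs in members and 70.1% in the others (504 in 1 cell). The fold thus rests on few cells. Postn, periostin of injured and load-bearing matrix, was at 10.3 against 113 CPM, and the Wnt antagonist Sfrp2 at 19.8 against 207 CPM, found in 14 members. Apoe, an apolipoprotein, was at 30.04 against 214 CPM, and the endothelial protein C receptor gene Procr at 42.2 against 279 CPM. Further down the order were the phospholipase Pla1a (-2.93), vitronectin (Vtn, -2.62), Sfrp4 (-2.54), Smpd3 (-2.47), Tek (-2.43), Col8a1 (-2.19) and Anxa3 (-2.18).

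Among FAP subtype lists with at least 10 genes compared, the Pi16 Dpp4 progenitor genes had the lowest median. Of 10 compared, 9 were at least 2-fold lower and none higher, with a median log2 fold of -1.93. They included Dpp4, a membrane peptidase (63.1 against 259 CPM), and the ligand Wnt2 (3.42 against 51.4 CPM). The other gate cells included cells with a Dmkn, Sbsn and Krtdap sum of 5 or more, which held 602 of the 873 Wnt2 UMIs there. With those cells left out, the Pi16 log2 fold was -2.03. The lists made after the study's FBN1+ and LUM+ FAP subtypes, the first with Tek added from mouse FAPs, divided otherwise. Of 13 FBN1+ genes compared, 7 were lower and none higher (median -1.10), among them Fbn1 itself, fibrillin-1 (763 against 1756 CPM), and the retinal dehydrogenase Aldh1a3 (-3.17). The study also names Prg4 as a marker of its human FBN1+ cluster. Prg4 was not in this list, and as a gene of the rule it was higher by choice (1442 against 304 CPM).

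Of 18 LUM+ genes compared, 3 were higher and 3 lower (median 0.09), so these cells did not sit on the LUM+ side as a block. The higher ones were Mgp, the flavin monooxygenase Fmo2 (log2 fold 1.39) and Myoc, myocilin (5837 against 2345 CPM). The lower ones were Mme, neprilysin (-1.81), the glucocorticoid-activating enzyme Hsd11b1 (66.2 against 192 CPM) and the chemokine Cxcl14 (764 against 1531 CPM, at the 2-fold limit itself). Lum itself, lumican, was at 1249 and 1519 CPM.

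**Figure D2:**
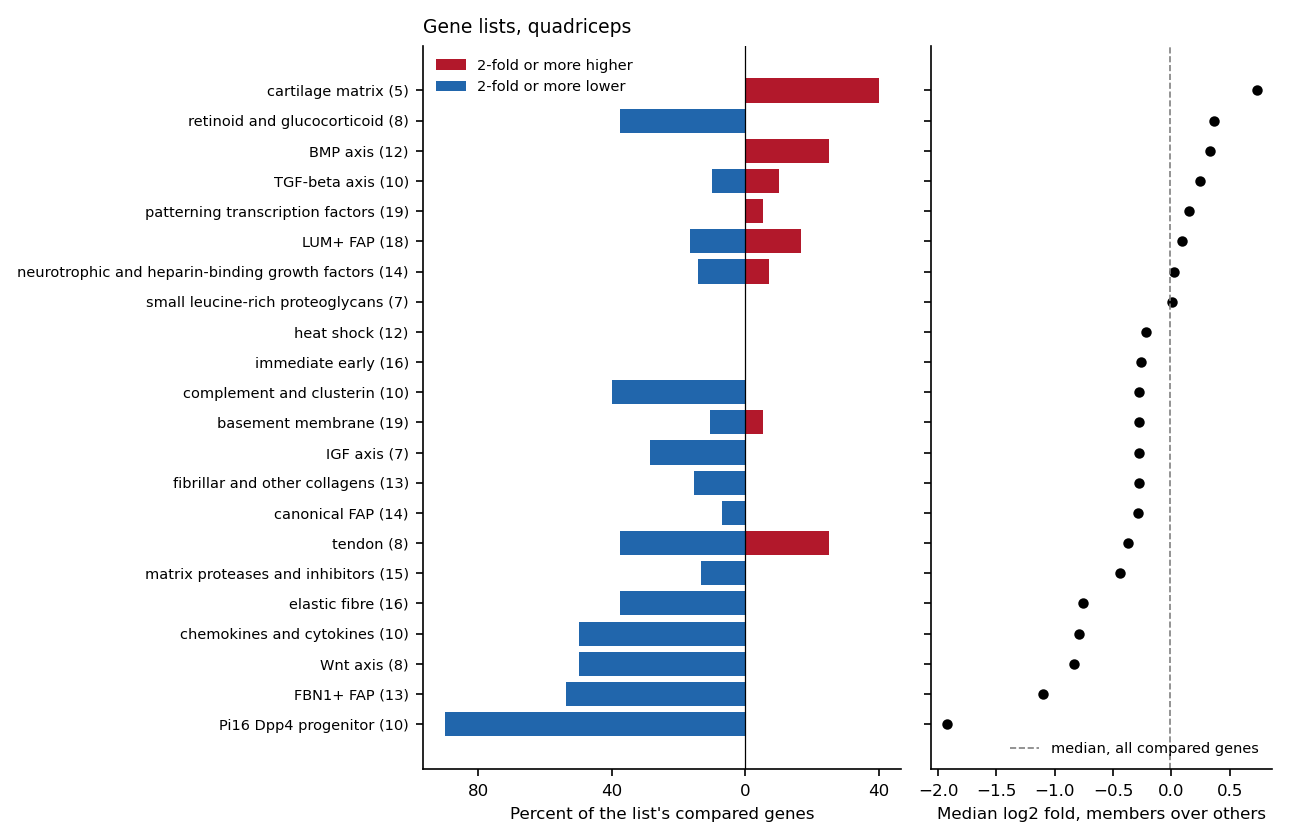
Share of each list's compared genes that were at least 2-fold higher (right, red) or lower (left, blue) in quadriceps members than in the other gate cells, with the number compared in brackets, and on the right the list's median log2 fold beside that of all compared genes (dashed line). Of the lists drawn, the Pi16 Dpp4 progenitor list has the lowest median, with 9 of 10 genes lower. Among genes compared, the cartilage matrix and BMP lists have higher genes and no lower ones.

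Compared genes of the BMP branch leaned to the higher side, with none of those compared 2-fold lower. Genes of this list under the 50 CPM minimum went both ways. Bmp2 (12.5 against 43.5 CPM) and Bmp7 (0.380 against 22.5 CPM) were lower there, and Id1 (39.9 against 14.7 CPM) was higher. Of 12 BMP genes compared, 3 were at least 2-fold higher (median 0.33): Gdf10 (241 against 85.3 CPM), Bmp5 (212 against 95.6 CPM) and Id2, a transcriptional inhibitor that BMP signalling induces in many cells (129 against 56.4 CPM). The Bmp5 fold fell under 2 in 3 alternatives, and with no mitochondrial limit the Bmp5 log2 fold was 0.82. In the TGF-beta list of 10, Inhba, the activin A subunit, was higher (91.3 against 28.9 CPM) and Ltbp1, which anchors latent TGF-beta, was lower (-1.87). Of 8 Wnt genes compared, 4 were lower and none higher (median -0.83): Wnt2, Sfrp2, Sfrp4 and the antagonist Dkk2. The ligand Wnt11 (log2 fold 0.49) and the antagonist Sfrp1 (0.01) were not lower. Under the minimum, Dkk3 (17.9 against 3.59 CPM) and Rspo3 (38.4 against 12.9 CPM) were higher, and Axin2 (0.760 against 4.30 CPM) was lower.

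Matrix lists split by kind. Of 5 cartilage matrix genes compared, Comp and the adaptor Matn2 (137 against 55.9 CPM) were higher (median 0.73). Most of this list was under the minimum and not compared. There Acan and Col2a1 had 0 UMIs in members, Sox9 was at 16.7 against 27.5 CPM, and Cytl1 was at 12.9 against 0.118 CPM. The Comp fold rested largely on 5 cells, as given above. Of 16 elastic fibre genes, 6 were lower and none higher (median -0.76): Efemp1, Emilin2, Lox, Ltbp1, Mfap4 and Fbn1, though 5 members held 92.1% of the Mfap4 UMIs. Of 19 basement membrane genes, Hmcn1 was higher while Lamb1 and Col4a5 were lower (median -0.28). Of 13 collagens, Col6a6 and Col8a1 were lower (median -0.28), and none of 7 small leucine-rich proteoglycans passed 2-fold. Of the 4 mineralisation regulators compared, Mgp was higher (median 0.71).

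Among genes compared, the complement, chemokine and IGF lists held lower genes and no higher ones, and the other lists were mixed. Clu, a gene of the rule, was left out of the complement list. Of 10 complement genes, 4 were lower, namely Vtn, C3, C4b and Cd55, and none higher (median -0.28). Of 10 chemokines and cytokines, 5 were lower (median -0.79): Cxcl13, Ccl2, Il33, Ackr3 and Cxcl14. Of 7 IGF genes, Igfbp4 (273 against 1181 CPM) and Igfbp5 (775 against 2485 CPM) were lower. In the list of 14 neurotrophic and heparin-binding factors, Ptn was the higher one and Vegfa and Ntn4 were lower (median 0.02). Of 8 retinoid and glucocorticoid genes, 3 were lower while the median was 0.37, so the calls and the median had opposite signs. Of 19 patterning transcription factors, Prrx2, a limb mesenchyme homeobox gene, was higher (154 against 69.3 CPM) and none lower. No gene of 16 immediate early, 12 heat shock or 8 housekeeping genes passed 2-fold, with medians of -0.26, -0.22 and -0.07.

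Mgp fell from the members through the cells that just missed the rule to the rest of the gate. Summed Mgp was 8399 CPM in the 119 members with 5 or more UMIs of both Prg4 and Clu, and 7421 CPM in the 50 members with either gene at its limit. In the 47 cells with enough Clu but under 2 UMIs of Prg4, Mgp was at 6905 CPM. In the 348 cells with enough Prg4 but under 2 of Clu it was at 3770 CPM. It was at 1908 CPM in 629 cells failing 2 conditions and 255 CPM in 423 cells failing more.

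Other genes followed Clu or Prg4 to different degrees in these near misses. Ptn was at 110 CPM in the Clu cells that missed on Prg4 and 28.4 CPM in the Prg4 cells that missed on Clu. Hmcn1 had the other order, at 56.8 and 76.6 CPM, and so did Myoc, at 3416 and 4274 CPM. Gdf10 stood at 433 CPM in the cells missing on Prg4, above its 241 CPM in the members, and Sfrp2 stood at 698 CPM there. Cells with Clu and little Prg4 thus shared the Ptn and Mgp of the members and not their low Sfrp2.

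**Figure D3:**
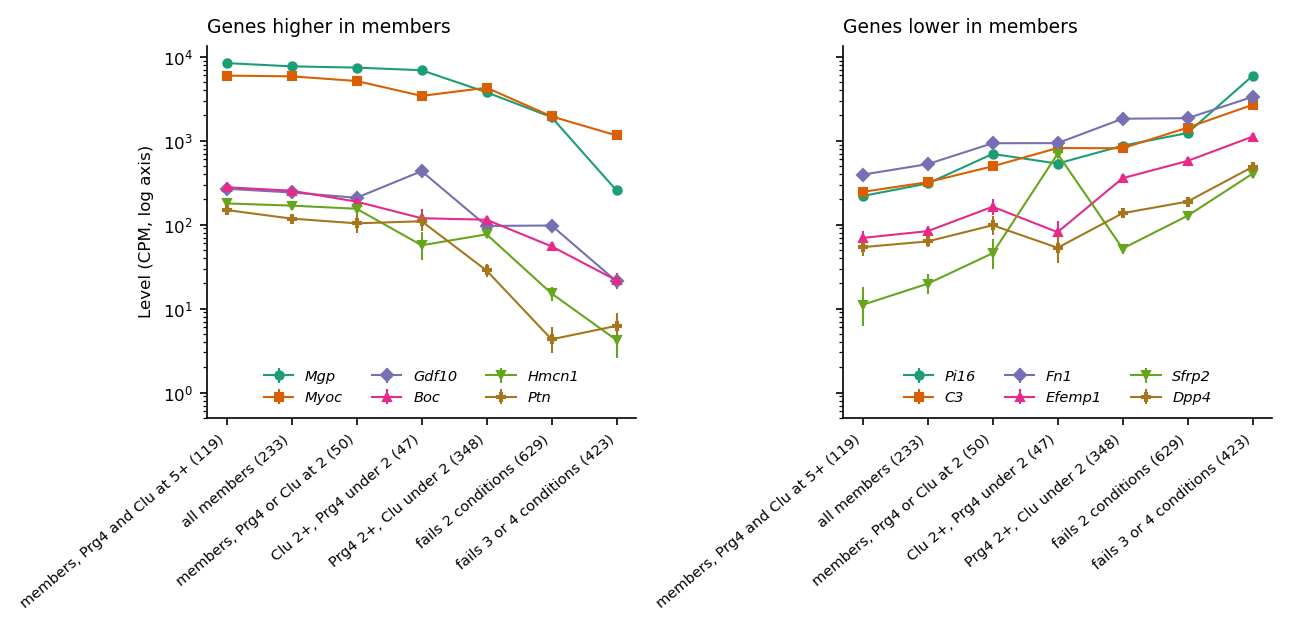
Summed level (CPM, log axis, exact 95% Poisson intervals) of 6 genes higher and 6 genes lower in members, in quadriceps gate cells ordered from members with 5 or more UMIs of both Prg4 and Clu to cells failing 3 or 4 conditions of the rule (cell numbers in brackets). Mgp falls from 8399 to 255 CPM and Pi16 rises from 220 to 5917 CPM, while Sfrp2 peaks at 698 CPM in the cells that missed on Prg4 alone.

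Set beside other transcript-defined FAPs of the same gate, the members stood farther from the Dmkn Sbsn FAPs than from the Cxcl14 Hsd11b1 FAPs by count of genes past 2-fold. Against 219 Dmkn Sbsn FAPs, 290 of 3505 genes were higher in members (8.27%) and 301 lower (8.59%). Against 332 Cxcl14 Hsd11b1 FAPs, 71 of 3410 were higher (2.08%) and 129 lower (3.78%). Ptn led both contrasts, with log2 folds of 5.64 and 3.80, and the Dmkn Sbsn FAPs held 162 CPM of Mgp and 8485 CPM of Pi16. Those groups were also cut from the measured counts, so the figures describe the cuts.

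Over the 1681 quadriceps gate cells, the genes most like Prg4 were Hmcn1 (Pearson r = 0.53 on log levels per cell), Myoc (0.52), Meox2 (0.52), Meox1 (0.50), Mgp (0.47), the tetraspanin Cd9 (0.47), Emp1 (0.47), Ltbp4 (0.46), biglycan (Bgn, 0.46) and Clu (0.45). The genes most like Clu were Meox1 (0.48), Mgp (0.46), cystatin C (Cst3, 0.46), Prg4 (0.45), Meox2 (0.44), Boc (0.44), Hmcn1 (0.43), Cpxm2 (0.42), Arhgdib (0.42) and the TAM receptor ligand Gas6 (0.41). Igfbp4 had the lowest r with both, -0.55 and -0.43. The points are cells of 1 library that share its depth and pooled animals. Within the 233 members alone, Prg4 and Clu had r = 0.04, Clu and Meox1 0.32, Mgp and Ptn 0.30, and Mgp and Fn1 -0.55. The rule set minimum counts for both Prg4 and Clu, which narrows the range of each gene among members. The r of 0.04 therefore cannot show whether Prg4 and Clu are related in these cells, and it is not comparable with the other pairs.

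Prg4 and Hmcn1 are neighbours on chromosome 1. On GRCm38 with GENCODE M21, Prg4 lies at chr1:150449412-150466165 and Hmcn1 at chr1:150562524-150993435, both on the minus strand, 96358 bases apart with no protein-coding gene between them. The genes around the pair did not stand out in members. Tpr, which overlaps the end of Prg4 on the other strand, stood at 137 against 142 CPM (log2 fold -0.06), and Ivns1abp, beyond Hmcn1, at 27.8 against 29.96 CPM (-0.11). Mgp and Arhgdib (69.2 against 8.95 CPM) lie 47831 bases apart on chromosome 6 with 1 protein-coding gene between. In all, 68 higher genes, counting those of the rule, formed 6 pairs within 200000 bases, and 121 lower genes formed 1. The 6 include the overlapping Tmem176a and Tmem176b, and Prg4, a gene of the rule, with Hmcn1. No pair count over all compared genes is given beside them, so these counts do not show whether the higher genes cluster. These positions were looked up after the values had been seen.

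Thinning every cell to 3000 UMIs showed the same genes as shares of cells. Immune cells of the same library were set beside them, with 127 cells deep enough and 31 left out, at a median of 5153 UMIs before thinning. They were picked on the immune gene Ptprc, with no UMI of Pdgfra and few of Dcn. This choice leaves out barcodes with more FAP transcripts, so the shares in these immune cells are not a full measure of background. Mgp had a UMI in 96.6% of members, 49.5% of the other gate cells and 8.66% of immune cells. Hmcn1 had one in 35.6, 7.64 and 0.787%, and Ptn in 21.0, 2.57 and 0.787% (unthinned 39.1% of members and 6.29% of others). Boc had one in 46.8% of members, 16.7% of others and 0 of 127 immune cells, which allows up to 2.36% by the limit of 3 counts. Kctd12 was in 48.1 and 19.7% but also in 31.5% of immune cells.

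**Figure D4:**
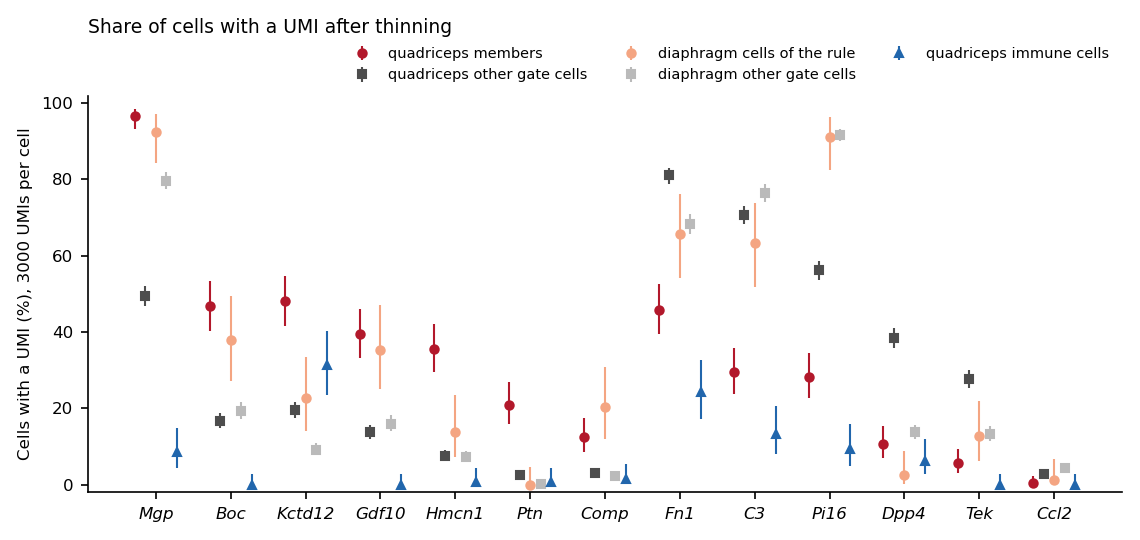
Percent of cells with at least 1 UMI of each gene after thinning to 3000 UMIs per cell (points with exact 95% binomial intervals), for quadriceps members, the other quadriceps gate cells, the same groups in diaphragm and quadriceps immune cells. Ptn was found in 21.0% of quadriceps members and in 0 of the 79 diaphragm cells of the rule, which allows up to 3.80% by the limit of 3 counts (its drawn interval is the exact one), and Pi16 in 28.3% of quadriceps members against 91.1% of those diaphragm cells.

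The diaphragm library, which did not serve to set the rule, asked whether the same cut finds like cells elsewhere. It held 79 such cells among 1347 gate cells (5.86%, 4.67 to 7.26%), against 13.9% in quadriceps, at median depths of 13151 and 13002 UMIs in these and the other 1268 gate cells. The libraries had 5 barcode sequences in common. Most quadriceps differences kept their sign and were smaller. Of the 63 higher genes, 51 (81.0%) were also above the diaphragm gate, where 43.5% of all compared genes were. By 2-fold or more 6 were so, against 9 of all 3369 genes (0.267%). Of the 121 lower genes, 99 (81.8%, against 56.5% of all) were also below it. By 2-fold or more 23 were so, against 33 of all 3369 genes (0.980%). Some of the genes past 2-fold in diaphragm, in both directions, were under the 50 CPM minimum there. The median log2 fold went from 1.35 to 0.34 for the higher genes and from -1.59 to -0.48 for the lower ones, and 61 and 117 of them had the smaller fold in diaphragm.

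Within the diaphragm gate itself, 6 of 3117 genes were higher (0.192%) and 22 lower (0.706%). Genes past 2-fold in both libraries, among those compared in both, were Comp, Gdf10, Fmo2 and Cst3 on the higher side and 11 on the lower side, among them Ccl2, Dpp4, Apoe, Vtn and Cxcl14. In the 79 diaphragm cells Dpp4 had 24 UMIs, and Ccl2 had 12 in 3 cells (3.80%, against 8.68% of the other cells). Of the other 1268 diaphragm gate cells, 5 held 41.0% of the Ccl2 UMIs. Cst3, an inhibitor of cysteine proteases, was at 5402 against 2175 CPM in quadriceps and 6451 against 2759 CPM in diaphragm. Gdf10 was at 207 against 79.5 CPM in diaphragm, a log2 fold of 1.37. Comp had its larger fold there, 195 against 14.3 CPM (3.68), though 5 of the 79 cells held 73.8% of its UMIs and the fold without them was 1.86.

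Several leading quadriceps genes differed much less in diaphragm. Mgp was at 4802 against 3223 CPM there (log2 fold 0.57), Hmcn1 at 43.7 against 25.97 CPM (0.73) and Boc at 141 against 73.9 CPM (0.92). Meox1, a gene of the rule, was at 257 against 141 CPM. Pi16 remained abundant, at 2161 against 3471 CPM, so the diaphragm cells of the rule were not low in it as the quadriceps members were. The differences between the libraries' folds were not tested.

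**Figure D5:**
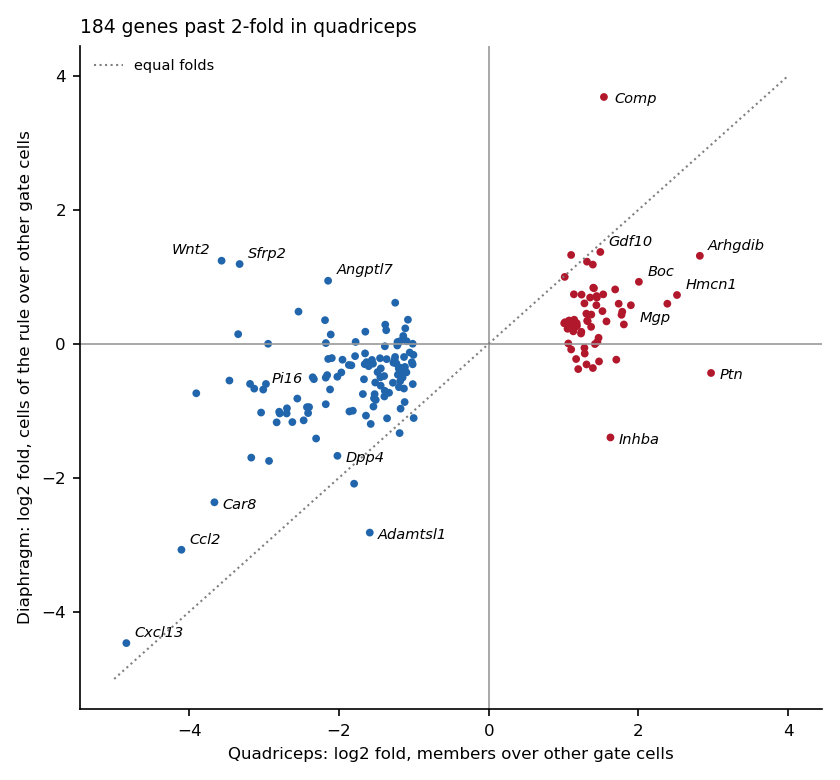
Log2 fold of cells meeting the rule over the other gate cells in quadriceps (horizontal) and diaphragm (vertical) for the 184 genes past 2-fold in quadriceps, red where higher and blue where lower, with a dotted line of equal folds. Most points share a sign but lie closer to 0 on the diaphragm axis, and Comp at 3.68 lies above the line while Sfrp2, Wnt2 and Inhba lie on the opposite side of 0 (Wnt2 and Inhba with few diaphragm UMIs).

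Quadriceps members and diaphragm cells of the rule were also compared directly. Of 3366 genes, 124 were higher in quadriceps (3.68%) and 166 lower (4.93%), and in the other gate cells 91 (2.76%) and 124 (3.76%) of 3299 were. Ptn had 310 UMIs in the members and 0 in the diaphragm cells, which makes it at least 42.3-fold higher (floor of 3 counts over the group), and the other gate cells had 14.2 and 0.353 CPM. Shox2, a limb homeobox gene, was at least 40.9-fold higher at 114 CPM, and was also at 83.6 against 2.64 CPM in the other gate cells. S100a4, a calcium-binding protein, was at 826 against 34.4 CPM (log2 fold 4.55, and 3.85 in the other cells), Acta2, smooth muscle actin, differed by 3.23 (2.74) and the nucleosome-binding Hmgn3 by 2.63 (1.74).

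On the lower side the microfibril gene Mfap4 was at 33.8 CPM in the members and 1598 CPM in the diaphragm cells (log2 fold -5.52, against -3.66 in the other cells). Next came the stress-induced factor Atf3 (-5.17 and -4.40), the thrombospondin Thbs4 (-5.14 and -3.54), the hyaluronan synthase Has1 (-4.71 and -3.50) and Gm12840 (-4.61 and -6.01). Library, animals and tissue cannot be told apart in these values.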

How the data were processed

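The authors made the deposited files, raw UMI counts per gene and barcode, with Cell Ranger 3.0.0 on mm10, per the labels' processing notes (which also name Seurat). The files held 27998 genes and 50854519 UMIs in quadriceps (5159 barcodes) and 28545242 in diaphragm (2499). Cells were kept at 1000 or more UMIs and at most 5% mitochondrial UMIs; the study prints its limit with a percent sign, and the figure was taken here as a share of UMIs, which is looser. Its upper UMI limit was not applied. Doublets were not removed; Scrublet (scanpy 1.11.5) was run as an alternative.

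Levels were summed UMIs as CPM with exact Poisson intervals, folds used a pseudocount of 1 CPM, and genes were compared at 50 CPM or more in the higher group and called at 2-fold. Shares have exact Clopper-Pearson intervals, a count of 0 allows up to 3 counts, and intervals cover counting error only. With 1 library per tissue no test between samples could be made. Correlations used log counts scaled per cell. The scripts were tested on simulated data. Named genes were the markers and rule genes, the 15 largest folds per direction at 100 CPM or more, up to 4 called genes per list, 5 per direction between libraries and the 10 most like Prg4 and Clu. List genes named beyond 4, the neighbours of Prg4, Hmcn1 and Mgp, the FAP surface genes, and the genes past 2-fold in both libraries were chosen after their values were seen. The members and all lists were chosen with earlier results of these data known. Alternatives covered the rule's limits, cell filters, normalisation, gene minimum, pseudocount and a split of the UMIs. Gene positions were from GENCODE M21, and promoters from RefSeq GRCm38.p6.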

Additional observations from a re-analysis of the deposited data

Results flagged for a closer look

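Sfrp2 had opposite directions in the libraries. It was lower in quadriceps members (19.8 against 207 CPM, log2 fold -3.33) and higher in the diaphragm cells of the rule (180 against 78.4 CPM, log2 fold 1.19), and this difference was not tested. In diaphragm its 194 UMIs came from 12 of 79 cells, with 79 in 1 cell, and 93.8% lay in 5 cells. Without those 5 the diaphragm log2 fold was -2.60, a value that leaves out high cells on the rule's side alone.

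Among 522 quadriceps cells over the 5% mitochondrial limit that passed the rest of the FAP gate, 93 met the rest of the rule (17.8%, exact interval 14.6 to 21.4%). They held 9062 CPM of Mgp, 114 of Ptn, 132 of Hmcn1, 260 of Boc and 136 of Pi16, against 3745, 33.3, 38.2, 81.9 and 1064 CPM in the other such gate cells.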

How the results depend on the processing

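No paired analysis was possible because each tissue had 1 library, and for the same reason no replicate could be left out. With Prg4 and Clu required at 1 UMI, the rule held 19.6% of the quadriceps gate and 13.96% of the diaphragm gate, and 90.6% of quadriceps calls had the same direction in diaphragm (81.5% as reported). With both at 5 UMIs it held 7.08 and 1.71%. When each UMI was assigned at random to 1 of 2 sets, with the gate read from the first and levels from the other (cell filters still used all UMIs), the shares were 10.0 and 3.17%, while 154 of the 184 calls were kept and Mgp, Ptn, Hmcn1 and Pi16 had log2 folds of 1.72, 2.89, 2.09 and -3.19. A minimum of 20 CPM gave 127 higher and 196 lower genes, 100 CPM gave 41 and 66, and no minimum gave 345 and 687 with 68.9% in the same direction. With the Dmkn, Sbsn and Krtdap cells taken from the other gate cells, 134 genes were called, of which 129 were among the 184. There 54 of the 82 named genes moved by more than their counting interval, and all 184 calls kept their sign. Thbs4 reversed, from -1.78 to a log2 fold of 0.41 with Prg4 and Clu at 1 UMI. Of the genes named from lists, Igfbp5 and Prrx2 fell under 2-fold when Dmkn, Sbsn and Krtdap cells were taken from the other gate cells, Col8a1, C4b, Lox, Mfap4 and Dkk2 with Prg4 and Clu at 1 UMI, and Cd55, Ntn4 and Vegfa in the split of UMIs. Of the settings tried on 82 named genes, 1179 folds moved by less than their counting interval, 214 by more, and 1 reversed. Scrublet called 98 quadriceps barcodes (1.90%) and 4 diaphragm barcodes (0.160%). Each diaphragm fold rests on 79 cells.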
